A study of Mus musculus with 4 samples.

Results

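The insulin-like growth factor (IGF) family of the liver was examined as a set of 10 named genes, Igf1, Igfals, Igfbp1 to Igfbp7 and Igf2r. They were taken by symbol from the 37315 gene rows of each count table, and all 10 were found. Liver RNA came from C57BL/6 mice aged 23 weeks, in 2 groups of 2 libraries each: animals carrying a synonymous mutation of Foxo1, called mutant here, and wild type animals. Such a mutation alters the coding DNA but leaves the encoded amino acid as it was. The sources used here do not give the position of the mutation, whether both alleles carried it, or how the animals were fed. Nothing in the labels ties a library to its own animal, so each p-value reflects only the scatter between these samples, which may be technical.

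IGF-1 is a growth-promoting hormone that the adult liver releases into blood under the control of growth hormone. Most of it travels bound to IGF binding proteins, which lengthen its life in the circulation and limit its access to receptors; Igfals encodes the acid-labile subunit that joins IGF and a binding protein in a large serum complex. Igf2r encodes the receptor that clears IGF-2 and also carries mannose 6-phosphate tagged enzymes to lysosomes. Foxo1, a transcription factor that insulin signalling keeps out of the nucleus, is known as an activator of Igfbp1, and the promoter of IGFBP1 in human and rat holds an insulin response element to which forkhead factors bind.

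The promoter windows of the members were read first, because Igfbp1 is the member with a known link to Foxo1. Each window runs from 250 bases before to 50 bases after a RefSeq start (build GRCm38.p6, which is mm10), and the 10 members had 13 windows, 3 for Igfals and 2 for Igfbp2. Igfbp1 is shown for its insulin response element, Igfbp3 as its neighbour on chromosome 11, and Igfals for the window that holds a strong forkhead motif, GTAAACA. Capitals mark the forkhead core AAACA, the insulin response motif CAAAACA, which contains that core, and its variant CAAAATA, each on either strand.
Igfbp1, chr11:7197537-7197836, plus strand: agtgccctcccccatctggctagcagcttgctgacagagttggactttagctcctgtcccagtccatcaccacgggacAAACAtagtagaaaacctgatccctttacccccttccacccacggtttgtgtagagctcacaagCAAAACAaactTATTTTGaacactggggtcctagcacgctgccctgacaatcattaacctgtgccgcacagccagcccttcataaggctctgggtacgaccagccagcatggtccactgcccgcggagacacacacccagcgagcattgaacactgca
Igfbp3, chr11:7213874-7214173, minus strand: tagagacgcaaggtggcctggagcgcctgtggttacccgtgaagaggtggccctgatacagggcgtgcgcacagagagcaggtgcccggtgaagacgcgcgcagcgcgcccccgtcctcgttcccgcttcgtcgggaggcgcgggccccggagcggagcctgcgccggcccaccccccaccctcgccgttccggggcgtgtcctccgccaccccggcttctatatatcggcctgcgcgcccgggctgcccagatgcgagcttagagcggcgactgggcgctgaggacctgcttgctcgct
Igfals, chr17:24877981-24878280, plus strand: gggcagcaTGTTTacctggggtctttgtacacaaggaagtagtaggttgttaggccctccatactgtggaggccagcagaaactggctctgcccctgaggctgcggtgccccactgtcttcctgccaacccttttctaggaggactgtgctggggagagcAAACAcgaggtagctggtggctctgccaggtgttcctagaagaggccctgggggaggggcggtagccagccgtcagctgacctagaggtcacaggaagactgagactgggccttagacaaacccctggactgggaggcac

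In the Igfbp1 window CAAAACA begins at −108 and, on the other strand, CAAAATA occupies the bases from −97, so that they face each other with 4 bases between. CAAAACA was found in 6.28% of all 32851 mouse promoter windows of this length, and CAAAATA in 4.36%, on either strand. The spaced pair, CAAAACANNNNTATTTTG on either strand, was found in 1 of the 32851 windows, that of Igfbp1; its spelling was taken from that window, so its rarity elsewhere is no test. The short core AAACA was in 50.5% of windows and in those of Igf1, Igfbp1, Igfbp5, Igfbp6, one start of Igfbp2 and one of Igfals. GTAAACA, which also contains the core, was in 3.65% of windows and, among the members, at −242 of that Igfals start, read on the other strand. The windows of Igfbp3, Igfbp4, Igfbp7 and Igf2r held none of these letters and had GC contents of 71.7%, 71.3%, 73.3% and 70.7%, against 54.3% for Igfbp1. A match here is a match of letters and not a bound site.

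**Figure D1:**
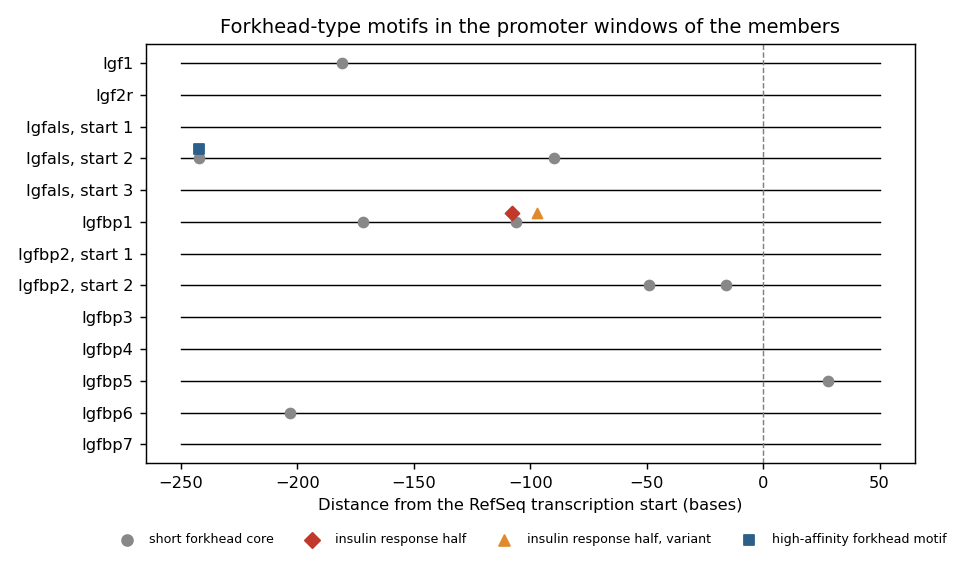
Position of each forkhead-type motif in the 13 promoter windows of the 10 members, as the distance in bases of the leftmost base of the motif from the RefSeq start (dashed line). Grey circles are the short core, the red diamond and orange triangle the facing parts of the insulin response element, and the blue square the high-affinity motif. The diamond and the triangle stand in the Igfbp1 window alone, at −108 and −97.

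The libraries held 95908652 and 83594287 counts in the mutant group and 80975687 and 73551737 in the wild type group, so that 3 counts correspond to at most 0.0408 CPM (counts scaled to library size). All 13 hepatocyte markers that were matched of 14 listed were detected, led by albumin (Alb) at 67932 and 64783 CPM in mutant livers, against 71504 and 80698 CPM in wild type livers. Kupffer cell markers stood apart between the groups. The 15 genes summed to 681 and 770 CPM in mutant livers and to 477 and 497 CPM in wild type livers. Of these, 14 were higher in both mutant libraries than in both wild type libraries, against 17% of all genes tested. The list was chosen with earlier results of these data known, so setting it against all genes is a description and no test. Of the 15, 6 rose past the threshold used below, among them Lyz2, Csf1r and Cd5l, against 0.28% of all genes tested, and 0 did so with any 1 library left out. The main fit called 50 genes in all. With limma-voom the Kupffer count was 1, of 7 genes called in all, and without robust estimation 1 of 8. It was 3 of 24 with a filter of 1 CPM in 2 libraries and 10 of 107 with DESeq2. With a replicate block it was 11 of 111, and with no filter 13 of 258. Exons of Csf1r overlap those of Hmgxb3 on the opposite strand (15.1% of its exon length). The 15 sinusoidal endothelial markers summed to 391 and 391 CPM in mutant livers and 386 and 406 CPM in wild type livers, the 15 stellate cell and fibroblast markers to 485 and 472 CPM against 474 and 519 CPM, and the 9 cholangiocyte markers to 54.6 and 53.4 CPM against 56.0 and 53.1 CPM. In these 3 lists and among the hepatocyte markers 0 genes passed in edgeR, DESeq2 or limma-voom. In edgeR 2 stellate markers, Ecm1 and Col3a1, and 0 others had an unadjusted p under 0.05, against 6.19% of all genes tested. Both were lower in mutant livers, with log2 fold changes of −0.20 and −0.24. Of the 15 stellate markers, 4 were lower in both mutant libraries than in both wild type libraries and 0 higher, against 17% each of all genes tested. The 10 lymphocyte markers summed to 17.9 and 15.0 CPM in mutant livers and 10.1 and 12.5 CPM in wild type livers. The largest part was the leukocyte gene Ptprc, at 11.4 and 10.1 CPM against 6.55 and 6.05 CPM. Cd4, the next largest, overlapped between the groups. Of 9 lymphocyte markers tested, 7 were higher and 2, among them Cd4, lower in the mutant mean (median log2 fold change 0.77). For 4 of the 9 both mutant libraries were above both wild type libraries and for 0 below, against 17% each of all genes tested. All but Ptprc and Cd4 were below 1 CPM in every library. Ptprc alone rose past the threshold (edgeR adjusted p = 0.0405). Its adjusted p was 0.0555 with a filter of 1 CPM in 2 libraries, 0.103 without robust estimation and 0.122 with limma-voom. With RLE or upper quartile scaling it was 0.0411 and 0.0405, with DESeq2 0.00213, with a replicate block 0.0126 and with no filter 2.93e-05. In whole liver, a lower value can mean fewer cells of a type or less RNA in each, and these cannot be told apart.

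Levels between genes were compared as CPM divided by the length of all annotated exons in kilobases. On this scale the family spanned from a mean of 222 CPM per kilobase for Igfbp4 to 0.788 for Igfbp6, over all 4 libraries. Igfbp4, whose protein mostly restrains IGF action and is cut by the protease PAPP-A, was the first member in every library, with 224 and 241 CPM per kilobase in mutant livers and 227 and 196 in wild type livers. It made up 47.4% and 47.1% of the summed family level per kilobase in mutant livers, and 46.9% and 42.2% in wild type livers, and stood 198th among 14489 tested genes with a length.

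Igfbp2, a major binding protein of serum, came second in every library, with 85.1 and 98.1 CPM per kilobase in mutant livers and 82.3 and 105 in wild type livers. Its range did not meet that of Igfbp4 above it or of Igfbp1 below it. Igfbp1 held 43.7 and 63.9 CPM per kilobase in mutant livers and 56.1 and 64.6 in wild type livers, and Igf1 held 50.3 and 47.7 in mutant livers and 50.7 and 37.9 in wild type livers. The ranges of Igfbp1 and Igf1 overlapped, and in mutant replicate 1 Igf1 was above Igfbp1. Igfbp7, a relative with weak affinity for IGF, followed at 29.9 to 33.6 CPM per kilobase, and Igfals at 14.1 to 26.5, each apart from its neighbours.

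The lower part of the order held Igfbp3, Igf2r, Igfbp5 and Igfbp6. Igfbp3, the main carrier of IGF-1 in serum, was at 3.35 to 5.77 CPM per kilobase, and Igf2r at 4.44 to 4.998; these ranges overlapped and their means differed 1.02-fold. Igfbp5, the other binding protein that joins the large serum complex, was at 1.68 to 2.99, and Igfbp6, which prefers IGF-2, at 0.304 to 1.04. Igfbp3 was thus below its partner Igfals, whose mean was 4.25 times higher on this scale. In rat liver Igfbp3 is made by cells other than hepatocytes, whereas Igfals is a hepatocyte product.

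The order depends on which length stands for a gene. With the longest transcript as length, Igf1 and Igfbp1 changed places. With the median transcript length, which many short annotated transcripts pull down, Igf1 moved up to the second place, Igf2r to the fifth and Igfbp7 down to the seventh, and 4 of the 10 members stayed at their rank. Igfbp4 was first and Igfbp5 and Igfbp6 last under all 3 lengths.

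**Figure D2:**
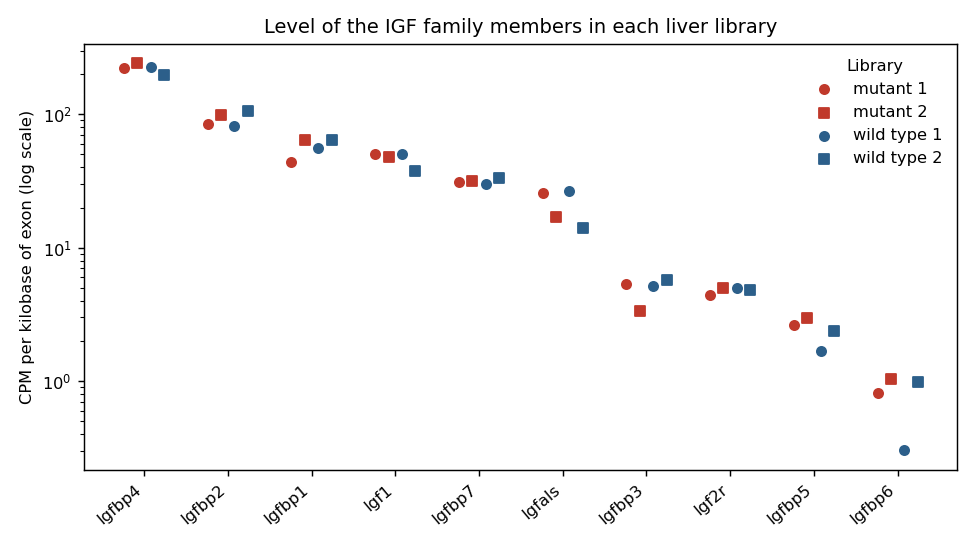
Level of each member in each library, as CPM per kilobase of exon on a log axis, with members ordered by their mean over the 4 libraries; red stands for mutant and blue for wild type livers, circles for replicate 1 and squares for replicate 2. Igfbp4 lies highest in every library and Igfbp6 lowest, and the points of Igfbp1 and Igf1 intermingle, as do those of Igfbp3 and Igf2r.

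The comparison of mutant with wild type livers asked whether expression differed with the synonymous Foxo1 mutation. None of the 10 family members passed the threshold, a Benjamini-Hochberg adjusted p below 0.05 over all genes in edgeR's quasi-likelihood test. Across the 14657 genes tested, 0.341% passed (0.28% higher and 0.0614% lower in mutant livers). DESeq2 and limma-voom likewise gave 0 members, and 1 member, Igfbp5, had an unadjusted p below 0.05 in edgeR, as had 6.19% of all genes tested. The fold change was above 1 for 5 members and below 1 for the other 5, and the median log2 fold change was 0.02, against −0.00 over all genes. The groups did not overlap for 1 of the 10 members, against 34.1% of all genes tested. CPM values below are normalised, means are given with the SD over n = 2 libraries, and a log2 fold change above 0 means a higher level in mutant livers.

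Foxo1 itself was at 33.6 and 53.4 CPM in mutant livers, against 44.0 and 54.8 CPM in wild type livers, so its groups overlapped (edgeR adjusted p = 1.0). Igfbp1 (ENSMUSG00000020429, chr11:7197782-7202546, plus strand) was at 66.6 and 97.5 CPM in mutant livers, against 85.6 and 98.6 CPM in wild type livers. For both genes mutant replicate 1 was lowest, then came wild type replicate 1, mutant replicate 2 and wild type replicate 2. This shared order was noticed after the values were seen. It held for 1 of the 10 members, Igfbp1, and for 3.71% of all genes tested. Igfbp1 averaged 82.0 ± 21.9 CPM in mutant livers and 92.1 ± 9.16 CPM in wild type livers, and the log2 fold change was −0.17 (SE 0.20; 95% interval −0.69 to 0.36, edgeR adjusted p = 1.0). On a linear scale that interval runs from 0.620 to 1.28 of the wild type level. Leaving out mutant replicate 1 turned it to 0.08. Leaving out mutant replicate 2 gave −0.47, and leaving out wild type replicate 1 or 2 gave −0.26 and −0.06.

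Igf1 (ENSMUSG00000020053, chr10:87858265-87937042, plus strand) was at 498 and 472 CPM in mutant livers, against 502 and 375 CPM in wild type livers. The mutant values lay inside the wild type range, and wild type replicate 2 was the low library. Igf1 averaged 485 ± 18.0 CPM in mutant livers and 439 ± 89.9 CPM in wild type livers, and the log2 difference was 0.14 (SE 0.13; 95% interval −0.15 to 0.44, edgeR adjusted p = 1.0). Without wild type replicate 2 it was −0.05, and without wild type replicate 1 it was 0.37. The interval bounds a difference at 0.899 to 1.36 times the wild type level.

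Igfals (ENSMUSG00000046070, chr17:24865997-24882010, plus strand) varied most among the members other than Igfbp6. It was at 81.7 and 53.8 CPM in mutant livers, against 84.1 and 44.6 CPM in wild type livers. Replicate 1 was above replicate 2 in both groups, by 1.52-fold in mutant and 1.89-fold in wild type livers. These gaps were larger than those of 87.0% of tested genes in the mutant group and 92.6% in the wild type group. Igfals averaged 67.8 ± 19.7 CPM in mutant livers and 64.3 ± 27.9 CPM in wild type livers, with a log2 fold change of 0.07 and a 95% interval of −1.86 to 2.01 (edgeR adjusted p = 1.0), which reaches up to 4.02 times the wild type level. Leaving out mutant replicate 1 gave −0.26, mutant replicate 2 gave 0.34, wild type replicate 1 gave 0.60 and wild type replicate 2 gave −0.31.

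**Figure D3:**
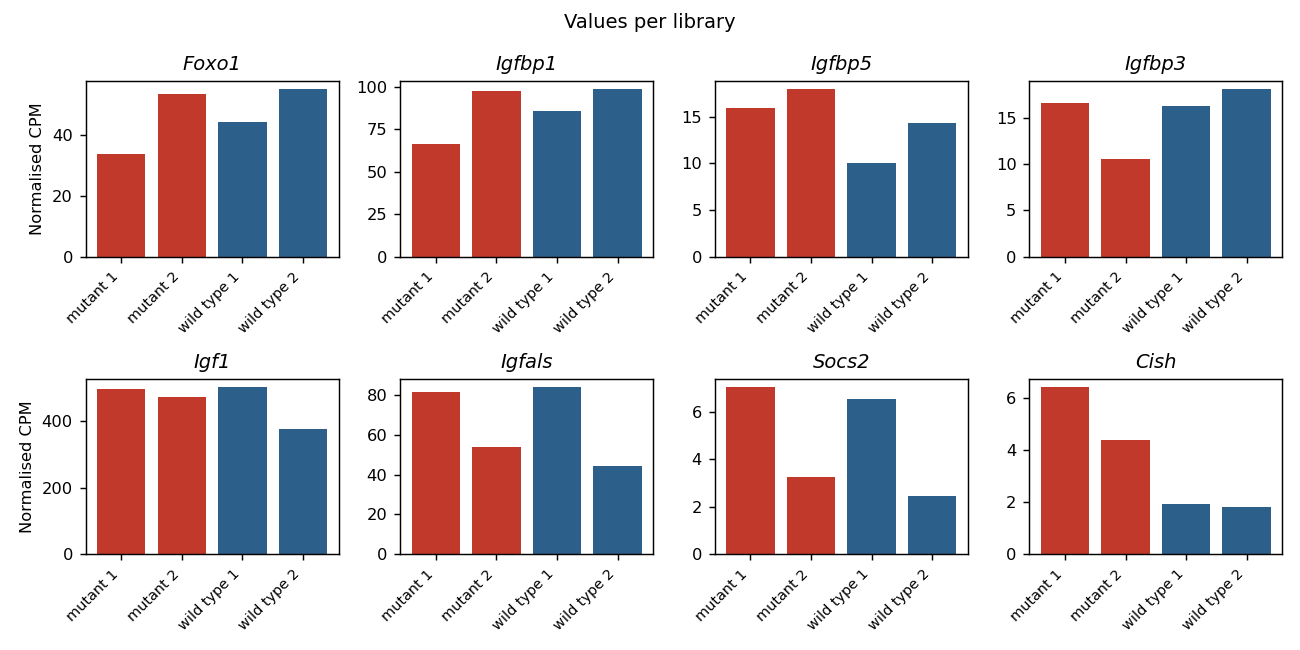
Normalised CPM in each library for Foxo1, 5 members and the growth hormone response genes Socs2 and Cish, with mutant livers in red and wild type livers in blue. Foxo1 and Igfbp1 are lowest in mutant replicate 1, Igfals and Socs2 are higher in replicate 1 than in replicate 2 of each group, and Igfbp5 and Cish are higher in both mutant libraries than in both wild type libraries.

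Igfbp5 and Igfbp3 had the lowest unadjusted p of the family, with log2 fold changes of opposite sign. Igfbp5 (ENSMUSG00000026185, chr1:72857932-72874884, minus strand) was at 16.0 and 17.9 CPM in mutant livers, against 10.1 and 14.4 CPM in wild type livers. Both mutant libraries were above both wild type libraries. It averaged 17.0 ± 1.41 CPM in mutant livers and 12.2 ± 3.02 CPM in wild type livers, a log2 difference of 0.47 (SE 0.16; 95% interval 0.11 to 0.84). The edgeR adjusted p was 0.589, and Igfbp5 was thus not called. The value was positive whichever library was left out, from 0.24 without wild type replicate 1 to 0.75 without wild type replicate 2. With no filter on low counts Igfbp5 passed in edgeR (adjusted p = 0.0129), in a fit that called 258 genes in place of 50; over all alternatives its adjusted p ran from 0.0129 to 0.975. The Kupffer cell markers, whose summed level was also higher in both mutant libraries, and the stellate markers, whose summed level overlapped between groups, are given above; their part in the Igfbp5 value was not tested.

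Igfbp3 (ENSMUSG00000020427, chr11:7206086-7213923, minus strand) was at 16.6 and 10.5 CPM in mutant livers, against 16.2 and 18.0 CPM in wild type livers. Mutant replicate 2 alone was low. The means were 13.6 ± 4.34 CPM in mutant livers and 17.1 ± 1.29 CPM in wild type livers, and the log2 difference was −0.34 (SE 0.22; 95% interval −0.89 to 0.22, edgeR adjusted p = 0.979). Leaving out mutant replicate 2 gave −0.04, and leaving out mutant replicate 1 gave −0.71, so 1 library sets the value. Igfbp3 lies 3539 bases from Igfbp1, and Igfbp2 5457 bases from Igfbp5, each pair with its 3' ends facing and no annotated gene between. Within the first pair Igfbp1 was lowest in mutant replicate 1 and Igfbp3 in mutant replicate 2. Within the second, Igfbp2 overlapped between groups and Igfbp5 did not.

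The remaining binding proteins and Igf2r overlapped between groups. Igfbp4 (ENSMUSG00000017493, chr11:99041244-99054392, plus strand) was at 989 and 1065 CPM in mutant livers, against 1004 and 867 CPM in wild type livers, and its log2 difference was 0.14 (SE 0.11; 95% interval −0.11 to 0.38; edgeR adjusted p = 0.997). Igfbp2 (ENSMUSG00000039323, chr1:72824503-72852474, plus strand) was at 157 and 181 CPM in mutant livers, against 152 and 194 CPM in wild type livers. In both, the mutant values lay within or close to the wild type range. Igfbp2 had a log2 fold change of −0.03 (SE 0.13), which turned to 0.07 on leaving out mutant replicate 1 and to 0.15 on leaving out wild type replicate 2. The 95% intervals reached from 0.928 to 1.30 times the wild type level for Igfbp4 and from 0.803 to 1.19 times for Igfbp2.

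Igfbp7 (ENSMUSG00000036256, chr5:77349240-77408041, minus strand) was at 37.3 and 38.0 CPM in mutant livers, against 36.2 and 40.6 CPM in wild type livers. Igf2r (ENSMUSG00000023830, chr17:12682406-12769664, minus strand) was at 41.4 and 46.4 CPM in mutant livers, against 46.5 and 44.8 CPM in wild type livers. These were the members that varied least, with a highest library 1.12 times the lowest for Igfbp7 and 1.125 times for Igf2r. Their log2 fold changes were −0.03 (SE 0.09, 95% interval −0.24 to 0.18) for Igfbp7 and −0.06 (SE 0.09, 95% interval −0.26 to 0.15) for Igf2r. Igfbp7 was the one member whose exons overlap those of another annotated gene, 85 bases (7.03% of its exon length) shared with Polr2b on the opposite strand. The labels name a TruSeq RNA kit that does not mark strand, so reads there cannot be assigned by it.

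Igfbp6 (ENSMUSG00000023046, chr15:102144362-102149511, plus strand) rested on few reads, 87 and 97 in mutant livers against 28 and 79 in wild type livers. Its level was 0.914 and 1.16 CPM in mutant livers, against 0.338 and 1.09 CPM in wild type livers, and wild type replicate 1 alone was low. The difference on the log2 scale was 0.54 (SE 0.50; edgeR adjusted p = 1.0), and without wild type replicate 1 it was −0.08.

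**Figure D4:**
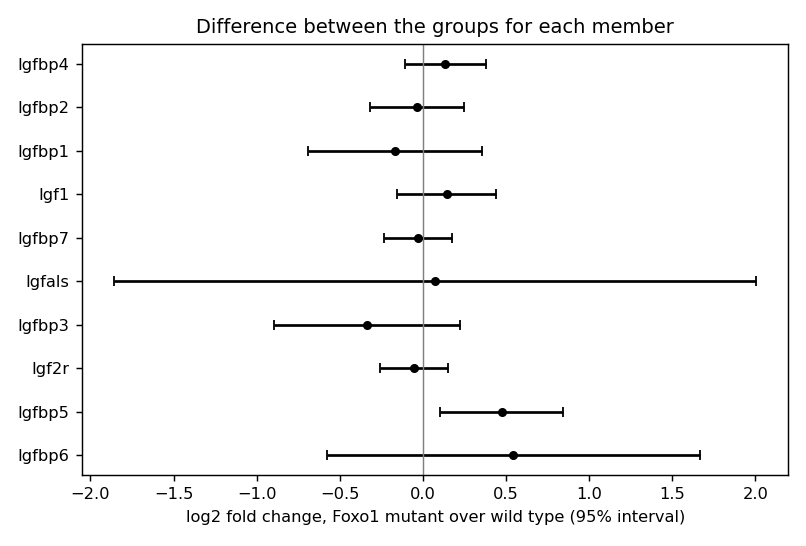
Log2 fold change of each member, mutant over wild type livers, with its 95% interval from the edgeR fit; members run from highest to lowest level per kilobase. The interval of Igfbp5 lies above 0, that of Igfals is the widest, and the intervals of Igfbp7 and Igf2r are the narrowest.

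Ligand and receptors outside the set were examined on the same scale. Igf2, a fetal growth factor that is shut down in adult mouse liver, was at 0.200 and 0.287 CPM in mutant livers, against 0.0482 and 0.138 CPM in wild type livers (edgeR adjusted p = 0.919). The insulin receptor Insr was at 113 and 119 CPM in mutant livers, against 125 and 121 CPM in wild type livers, and the log2 difference was −0.08 (edgeR adjusted p = 1.0). The IGF-1 receptor Igf1r, named after its values were seen, was at 0.179 and 0.646 CPM in mutant livers, against 0.446 and 0.540 CPM in wild type livers. Per kilobase the mean of Insr was 8.68 CPM and that of Igf1r 0.0270 CPM. Of the 4 genes in this list 3 were tested and edgeR, DESeq2 and limma-voom each called 0, with 0 below an unadjusted p of 0.05.

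The growth hormone axis, which drives Igf1 and Igfals through the receptor, JAK2 and STAT5, held the one called gene among these pathway lists. Cish, an inhibitor of cytokine receptor signalling that STAT5 induces, was at 6.44 and 4.399 CPM in mutant livers, against 1.92 and 1.81 CPM in wild type livers. It rose by 1.54 on the log2 scale (SE 0.22; edgeR adjusted p = 0.0109), and its exons overlap those of Gm17040 and Gm17041 on the opposite strand. With mutant replicate 2 left out the adjusted p was 0.0494, but leaving out mutant replicate 1, wild type replicate 1 or wild type replicate 2 gave 0.191, 0.151 and 0.165, with log2 differences of 1.24 to 1.78 over these 4 fits. With no library left out, the adjusted p of Cish was 0.0586 without robust estimation and 0.122 with limma-voom. It stayed below 0.05 under RLE scaling (0.011), upper quartile scaling (0.013) and the 1 CPM filter (0.024). DESeq2 gave 5.08e-06, the replicate block 0.000634 and the unfiltered fit 1.79e-10. Of 14 genes 13 were tested, 9 higher and 4 lower in the mutant mean (median log2 fold change 0.08); 1 rose and 0 fell, against 0.28% and 0.0614% of all genes tested, and 4 had an unadjusted p below 0.05, against 6.19%. DESeq2 called 2 of the list and 107 genes in all, and limma-voom 0 and 7. The growth hormone receptor Ghr, named after its values were seen, was at 623 and 604 CPM in mutant livers, against 568 and 637 CPM in wild type livers.

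Genes that act on IGF binding proteins did not pass. Of 14 proteases of binding proteins and their inhibitors, 9 were tested, 4 of them higher and 5 lower in the mutant mean, and edgeR, DESeq2 and limma-voom each called 0, with 0 below an unadjusted p of 0.05. Pappa, which encodes PAPP-A and is named here for its part in cutting Igfbp4, was at or below 0.111 CPM and was not tested. The serine protease Htra1 was at 1.05 and 0.741 CPM in mutant livers, against 1.36 and 1.47 CPM in wild type livers (edgeR adjusted p = 0.838). Adam12, a metalloprotease, was at 0.210 and 0.239 CPM in mutant livers, against 0.446 and 0.318 CPM in wild type livers (edgeR adjusted p = 0.979). Plasminogen (Plg) had the highest level of the list, 2627 and 2782 CPM in mutant livers against 2557 and 2647 CPM in wild type livers. Exons of Plg overlap those of Slc22a3 on the opposite strand (11.3% of its exon length).

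In the list of proteins that share the IGFBP domain or are related, 10 of 12 genes were tested, 4 positive and 6 negative, and edgeR, DESeq2 and limma-voom each called 0, with 1 below an unadjusted p of 0.05. That gene was Esm1, an endothelial proteoglycan, at 0.347 and 0.0359 CPM in mutant livers, against 0.663 and 0.803 CPM in wild type livers (edgeR adjusted p = 0.760). The matricellular genes Ccn1 and Ccn2 had log2 fold changes of −0.40 and −0.34 (edgeR adjusted p of 0.896 and 0.888). Exons of Ccn2 overlap Gm15270 on the opposite strand.

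The partners of Igf2r in lysosomal sorting, 7 genes of the mannose 6-phosphate pathway, were all tested, 2 positive and 5 negative, with 0 called by edgeR, by DESeq2 or by limma-voom and 0 below an unadjusted p of 0.05. The small receptor M6pr was at 98.7 and 84.1 CPM in mutant livers, against 89.4 and 97.6 CPM in wild type livers. The adaptor Gga3 and the phosphotransferase gene Gnptab had log2 fold changes of 0.28 and −0.12 (edgeR adjusted p of 0.890 and 1.0), and both overlap exons of other genes on the opposite strand. Of the Igf2 mRNA binding proteins Igf2bp2 was tested, at 0.777 and 0.729 CPM in mutant livers against 0.518 and 0.374 CPM in wild type livers (edgeR adjusted p = 0.919). Among 21 genes of signalling below the receptors 11 were positive and 10 negative, with a median of 0.00 and 0 called by edgeR, by DESeq2 or by limma-voom and 0 below an unadjusted p of 0.05. In that list Foxo3 and Pik3r1 had the lowest unadjusted p, with log2 fold changes of −0.19 and 0.20, and the adaptor Grb2 had the highest level per kilobase.

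Genes whose profile over the 4 libraries was nearest to those of Igf1 and Igfbp1 were sought among 5353 genes. These had an established symbol, so that predicted genes and clone names were left out, and a log2 CPM that averaged 4 or more. Nearness was the root mean square difference of log2 CPM after centring on each gene's mean. For Igf1 the nearest were Slc17a2 (0.0245), Aadat (0.0335) and Slc35b4 (0.0376). For Igfbp1 they were Rnf169 (0.0285), Mknk2 (0.0369) and Klf15 (0.0392), with Klf15 at 124 and 172 CPM in mutant livers, against 161 and 176 CPM in wild type livers. With 4 libraries this likeness is a description of these samples.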

How the data were processed

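Polyadenylated RNA of 4 mouse liver libraries was sequenced. The authors deposited unnormalised counts of reads for each Ensembl gene. The submitters' processing notes name TopHat2 2.1.1, HTSeq 0.6.0 and the build mm10, and the sources used here give no counting mode, strand setting or annotation release. Symbols were matched for 95.2% of identifiers, with coordinates, exon lengths and overlaps from GENCODE (GRCm38). Members and gene lists were chosen with earlier results of these data known. Some listed genes appear by a rule: those past the threshold, or otherwise the 2 of lowest unadjusted p and the 1 of highest level in a pathway list, and for cell types up to 3 past the threshold or the 1 of highest level.

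Genes kept by filterByExpr (minimum count 10) were scaled by TMM (factors 0.983 to 1.02) and tested with edgeR 4.0.16 in R 4.3.3 (glmQLFit and glmQLFTest, robust, group as the only term). Standard errors were derived from F, with a median of 0.148 over all genes. The fit was tested on simulated data. Alternatives were other scalings and filters, DESeq2 1.42.0, limma-voom (limma 3.58.1), no robust estimation, a replicate block, each library left out with the same genes tested, and for levels other gene lengths and total-count scaling. The 95% intervals were built from the standard errors above, and so include the scatter between libraries.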

Additional observations from a re-analysis of the deposited data

How the results depend on the processing

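The count of family members past the threshold was 0 under every alternative run except no filter, where it was 1 (Igfbp5). The count over all genes, 50, was 258 with no filter, 24 with a filter of 1 CPM in 2 libraries, 107 with DESeq2, 7 with limma-voom and 8 without robust estimation, and it was 50 with RLE and with upper quartile scaling. With a library left out it ran from 3 to 17, and of the 50 genes 0 to 7 passed again; the lone library of a group is then assumed to vary like the other pair. The cause of these differences was not tested.

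Replicate numbers do not pair the libraries by the labels, and the gaps between replicates 1 and 2 in the mutant and wild type groups had a correlation over genes of −0.0072. With a replicate block 111 genes and 0 members passed.

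With a library left out, log2 fold changes ran from −0.0507 to 0.371 for Igf1, −0.311 to 0.605 for Igfals, −0.470 to 0.0824 for Igfbp1, −0.199 to 0.154 for Igfbp2, −0.0779 to 1.61 for Igfbp6, −0.111 to 0.0557 for Igfbp7 and −0.144 to 0.0252 for Igf2r, each turning sign. Those of Igfbp3, Igfbp4 and Igfbp5 kept theirs under all alternatives. In the order by level per kilobase, 8 of 10 members stayed at their rank with the longest transcript length, 4 with the median length, and 8 to 10 with a library left out, where Igfbp3 and Igf2r changed places without mutant replicate 1 or wild type replicate 2. The 95% intervals given for the members are not adjusted for the number of genes tested.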

Other observations

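Socs2, a growth hormone induced inhibitor of its receptor's signalling, differed between replicates as Igfals did. It was at 7.03 and 3.24 CPM in mutant livers, against 6.52 and 2.46 CPM in wild type livers, so replicate 1 was above replicate 2 in both groups, and the log2 difference was 0.19 (SE 0.80; edgeR adjusted p = 1.0). The prolactin receptor Prlr was at 117 and 90.3 CPM in mutant livers, against 133 and 92.1 CPM in wild type livers. Both genes were singled out after their values were seen. In wild type replicates 1 and 2, Ghr and Stat5b of the growth hormone list went the other way. Ghr was at 568 and 637 CPM there, and Stat5b at 56.5 and 61.8 CPM. In mutant livers both had replicate 1 above replicate 2, at 623 and 604 CPM for Ghr and 54.2 and 52.2 CPM for Stat5b. The share of all genes with replicate 1 above replicate 2 in both groups was not counted. Besides Cish, 3 genes of the same list had an unadjusted p below 0.05, and none of the 3 passed in edgeR. Socs3, an inhibitor of cytokine signalling, was at 5.31 and 4.71 CPM in mutant livers, against 3.27 and 2.17 CPM in wild type livers (edgeR adjusted p = 0.181). Stat5a was at 9.49 and 10.4 CPM in mutant livers, against 13.5 and 11.8 CPM in wild type livers (edgeR adjusted p = 0.579). Exons of Stat5a overlap those of Stat3 on the opposite strand (1.01% of its exon length). Bcl6, a transcriptional repressor, was at 14.1 and 14.4 CPM in mutant livers, against 34.0 and 21.0 CPM in wild type livers (edgeR adjusted p = 0.584). These 3 were also named after their values were seen.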
